A study of Homo sapiens with 6 samples.

Results

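The clustered histone genes encode the core histones H2A, H2B, H3 and H4 and the linker histone H1, and lie in groups named HIST1 to HIST4. Their RNA was measured here in poly(A) RNA of human fibroblasts arrested in mitosis, with and without oncogenic Ras. Members were all genes in the deposited expression table whose symbol began with HIST, a group number and a histone class. Symbols with PS, which marks some pseudogenes, were left out. This gave 92 of the 63009 genes read from the table, under 76 symbols. Pseudogenes without PS in the symbol stayed in, and a later annotation lists HIST2H2BA, HIST2H2BC, HIST2H2BD, HIST3H2BA and HIST2H3DP1 as such. Of the 92, 22 averaged 1 FPKM or more across the 6 libraries (FPKM scales the fragments of a gene by transcript length and by the size of the library). Of these 22, 10 rose after Ras induction and 12 did not pass the test, beside 16.7% of all tested genes altered and 11.0% higher.

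Most clustered histone genes are switched on when DNA is copied, and their messages end in a short stem-loop that is bound by the protein SLBP, in place of the poly(A) tail of other messages. Some of these genes also make transcripts that run past the stem-loop and end in a poly(A) tail. Libraries primed or selected with oligo-dT, as these were, capture the tailed form.

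All 6 libraries came from ERRAS cells, which are early passage IMR90 human lung fibroblasts carrying a retroviral H-RasV12 fused to the estrogen receptor, so that tamoxifen activates it. In both groups the cells were held in mitosis with 1 μM DME (dimethylenastron), an inhibitor of the spindle motor Eg5, and the detached cells were collected, with a mitotic index over 90%. The 3 libraries of control mitotic cells were from uninduced cells. The 3 libraries of Ras-induced mitotic cells were from cells induced for 4 days with tamoxifen, at 100 nM by the sample labels and at 100 ng/ml (as 4OHT) by the study's methods. The comparison served the study's question of which gene expression changes accompany faulty mitosis in cells on their way to oncogene-induced senescence. It covers 1 cell strain, detached cells of an arrested culture, and libraries that do not record the strand of the RNA. The labels do not say whether the libraries of a group came from separate cultures, but the study describes its RNA-seq experiment as done in independent repeats, and the libraries are taken as such.

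No read counts were used, so no absolute depth is given. By the steps between low values, the depth relative to the first control library was 0.948 and 1.17 in the other controls and 1.13, 0.839 and 0.970 in the Ras-induced libraries. A library had 13448 to 13813 genes at 1 FPKM or more.

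The cells carried fibroblast transcripts. The summed FPKM of 8 fibroblast markers was 5239, 5882 and 5924 in control and 3856, 4986 and 3610 in Ras-induced mitotic cells, with VIM the most abundant of them, and by limma 2 of the 8 (COL1A2 and THY1) were lower in Ras-induced cells. COL1A1 (limma adjusted p = 0.0501) and COL3A1 (limma adjusted p = 0.0553) did not pass the test, but their Ras-induced values were all below the controls, and in the other 4 markers, VIM among them, the groups overlapped. Of 4 epithelial markers KRT5 was the most abundant and the summed FPKM lay between 17.0 and 32.8, with overlapping groups. The groups also overlapped in KRT5, KRT14 and CDH1. EPCAM, which averaged under 1 FPKM and was not tested, had 1.05, 0.880 and 1.80 FPKM in control. Its Ras-induced values were all lower, at 0.272, 0.167 and 0.424 FPKM. Endothelial markers summed to at most 0.0988 FPKM, with PECAM1 at 0, and leukocyte markers to at most 0.288 FPKM, with CD3E at 0. Whether the lower collagen genes, THY1 and EPCAM have a part in the histone result was not tested.

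HRAS, measured from the construct and the endogenous gene together, had 1174, 1176 and 1140 FPKM in control and 1439, 1847 and 1473 FPKM in Ras-induced mitotic cells. Thus the HRAS transcript was abundant in both groups, and the groups did not overlap. It rose by a log2 fold change of 0.44 (SE 0.11, limma adjusted p = 0.0431). That call held in 1 of the 6 fits that each left out 1 library (without the second Ras-induced library), where the adjusted p ranged from 0.0452 to 0.124.

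The 76 symbols were 55 of the HIST1 group on chromosome 6, 16 of HIST2, 4 of HIST3 and 1 of HIST4. Of the 92 entries, 21 were listed at 0 in all 6 libraries, and 14 of those 21 repeat a symbol that has another entry above 0. A further 49 were above 0 but under a mean of 1 FPKM, and 22 reached it, 12 of them in HIST1, 9 in HIST2 and 1 in HIST3. HIST4H4, the gene of HIST4, stayed under it. The highest means under 1 FPKM belonged to HIST1H2BG (0.870 FPKM), HIST1H3E (0.870 FPKM) and HIST1H2AE (0.838 FPKM), and the lowest above it to HIST2H2BD (1.12 FPKM), HIST1H2AG (1.24 FPKM) and HIST2H2BC (1.27 FPKM). HIST1H2BG had 0, 0.232 and 0.375 FPKM in control and 0.582, 2.67 and 1.36 FPKM in Ras-induced mitotic cells. Its groups did not overlap, but its level was too low for the test at a mean of 1 FPKM. At a mean of 0.1 FPKM or more, 59 clustered histone genes were tested and 11 were altered, all higher. Of these 11, 10 were also altered at a mean of 1 FPKM. Of all genes tested at that lower mean, 2078 of 20323 were altered.

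Among the 49 low genes the mean was higher in Ras-induced cells in 35 and lower in 14, beside 62.7% of all tested genes with a log2 fold change above 0. Their groups did not overlap in 6, with 5 higher (HIST1H2BG, HIST2H2BE, HIST2H3C, HIST1H3A and HIST1H3B) and 1 lower (HIST2H3DP1), beside 27.1% higher and 12.8% lower over all 13993 genes tested. Those shares are of genes at a mean of 1 FPKM or more, so they are not a reference at the level of the 49. The median of the group means of the 49 was 0.195 FPKM in control and 0.221 FPKM in Ras-induced cells. At such levels a value can rest on few fragments. Of all 92 entries, 8 were above 0.01 FPKM in exactly 1 library, with values from 0.114 to 0.895 FPKM.

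Every coding member at a mean of 1 FPKM or more carried the stem-loop that marks replication-dependent histone messages. It was searched for as 16 bases, a stem of 6 base pairs starting with GG (with at most 1 pairing of G with T) around a loop of 4 bases starting with TTT, within 150 bases after the stop codon. It was found in 63 of the 65 coding members with an annotated stop codon, namely in all 19 at a mean of 1 FPKM or more and in 44 of the 46 below that. Of 19639 protein-coding genes not matched to a member, 7 held it (0.0356%). These can include loci of the 6 member symbols that found no match, and other histone genes, so the 7 need not be unrelated genes. The sequences printed are those of the 10 members that rose and of HIST1H2BH and HIST3H2A, which did not pass the test. They are shown because messages cut just past this element carry no poly(A) tail, whereas these libraries were made from poly(A) RNA. They were read from GRCh37 (the hg19 build of the files) on the strand of the gene, written as DNA from 5′ to 3′. Capitals mark the 2 arms of the stem, with the loop between them and 5 bases on either side in lower case.
HIST1H1C: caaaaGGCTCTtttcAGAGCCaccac
HIST1H2AC: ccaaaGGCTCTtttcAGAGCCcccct
HIST1H2BC: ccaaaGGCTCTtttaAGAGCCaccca
HIST1H2BD: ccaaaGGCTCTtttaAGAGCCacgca
HIST1H2BJ: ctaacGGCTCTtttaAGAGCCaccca
HIST1H2BK: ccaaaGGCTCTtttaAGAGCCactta
HIST2H2AA3: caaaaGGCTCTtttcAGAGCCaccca
HIST2H2AA4: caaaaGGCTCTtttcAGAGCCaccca
HIST2H4A: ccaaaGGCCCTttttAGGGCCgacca
HIST2H4B: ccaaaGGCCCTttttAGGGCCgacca
HIST1H2BH: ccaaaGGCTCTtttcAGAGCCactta
HIST3H2A: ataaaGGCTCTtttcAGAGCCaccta
The 16 bases lie at chr6:26055972-26055987 (minus strand) for HIST1H1C, chr6:26124897-26124912 (plus) for HIST1H2AC, chr6:26123700-26123715 (minus) for HIST1H2BC and chr6:26158815-26158830 (plus) for HIST1H2BD. Those of HIST1H2BJ are at chr6:27100100-27100115 (minus), of HIST1H2BK at chr6:27114145-27114160 (minus) and of HIST1H2BH at chr6:26252283-26252298 (plus). On chromosome 1 they are at chr1:149813790-149813805 (minus) for HIST2H2AA3, chr1:149823141-149823156 (plus) for HIST2H2AA4, chr1:149804596-149804611 (plus) for HIST2H4A, chr1:149832335-149832350 (minus) for HIST2H4B and chr1:228645070-228645085 (minus) for HIST3H2A.

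Of the 22 members tested, 10 were altered (limma, Benjamini-Hochberg adjusted p of 0.05 or less over 13993 genes), all of them higher in Ras-induced mitotic cells, or 10 of 22 beside 16.7% of all tested genes altered, 11.0% higher and 5.67% lower. The median log2 fold change was 0.65 over the 22 and 0.10 over all tested genes. The 10 include the identical copies HIST2H2AA3 and HIST2H2AA4, and HIST2H4A and HIST2H4B. With near-identical copies summed before the test, 8 of the 21 entries then tested were altered, all higher, with a median log2 fold change of 0.53. The 3 Ras-induced values lay above the 3 control values in 14 members and below them in 1 (HIST1H2BH), beside 27.1% and 12.8% of all tested genes, and in the other 7 the groups overlapped. In 5 members (HIST1H2AG, HIST1H2BC, HIST1H3D, HIST2H2BC and HIST2H2BD) the control mean was 0.653 to 0.928 FPKM, and a mean of 1 FPKM was reached through the Ras-induced values, so these counts only describe the members that passed the filter. All fold changes are of FPKM + 1 on the log2 scale, where changes of scarce transcripts come out too small. With 0.1 in place of 1 the log2 fold change was over 1.5 times as large in the same direction in 7 of the 22, at 1.71 for HIST1H2BC, 1.38 for HIST1H3D, 1.03 for HIST2H4A, 1.15 for HIST2H4B, 0.76 for HIST1H2AG, 0.92 for HIST2H2BC and 0.78 for HIST2H2BD. Of the 22, 21 were matched to a position, and the spans of 11 (HIST1H2AC, HIST1H2BC, HIST1H2BD, HIST1H2BH, HIST1H3D, HIST1H3G, HIST2H2AA3, HIST2H2BC, HIST2H2BD, HIST2H2BF and HIST3H2A) overlap other annotated genes. Whether fragments of those genes were counted cannot be seen in gene-level FPKM. In bulk RNA, fewer cells with a transcript and less of it per cell cannot be told apart.

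**Figure D1:**
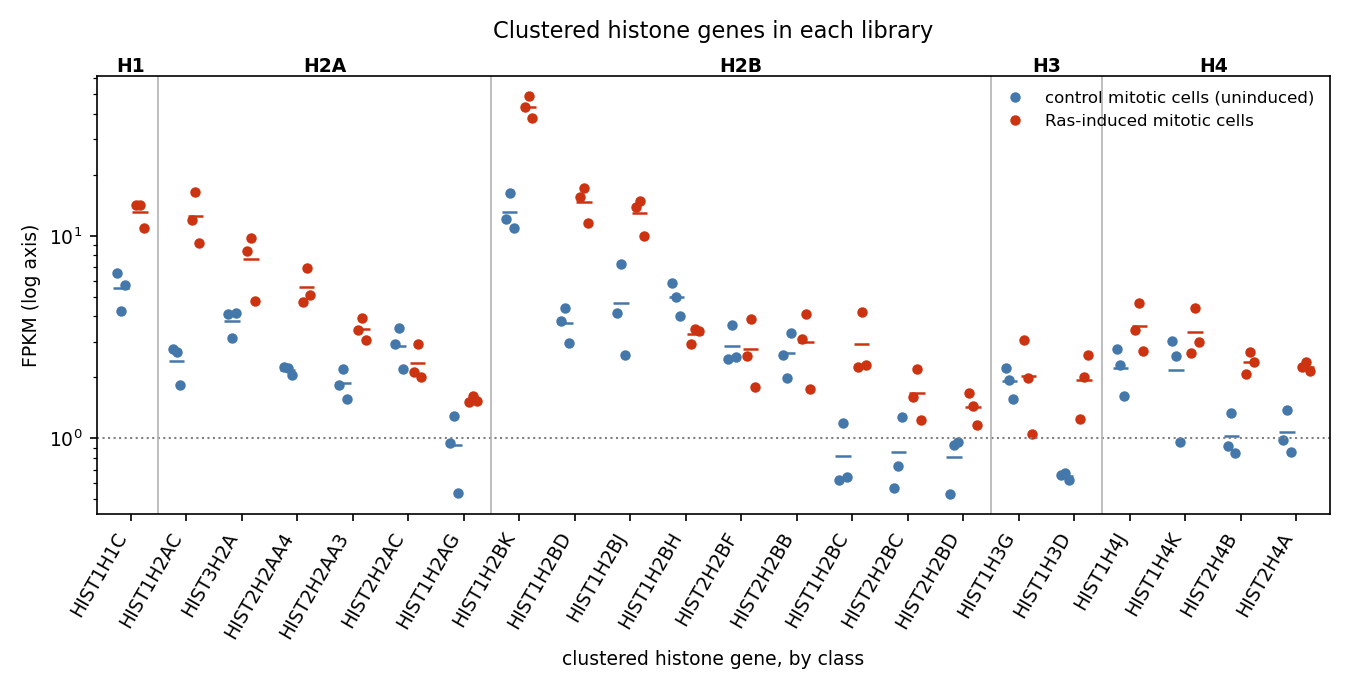
FPKM (log axis) of the 22 clustered histone genes that averaged 1 FPKM or more, by histone class. Each point is 1 library, the short lines are group means, and the dotted line is at 1 FPKM; HIST1H2BK was highest, at 10.9 to 16.2 FPKM in control and 38.0 to 49.1 FPKM in Ras-induced mitotic cells.

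How many calls were higher or lower depended on how the libraries were scaled. With the values as deposited, 66.1% of all altered genes were higher, whereas after quantile normalization 48.5% were and after scaling to a common upper quartile 45.5% were. Over all tested genes these scalings shifted the median log2 fold change from 0.10 to 0.01 and 0.00. The median of the 22 clustered histone genes was 0.57 after the first and 0.58 after the second. With quantile normalization 7 of the 22 were altered (7 higher), and with upper-quartile scaling 9 were, 8 higher and 1 (HIST1H2BH) lower. The calls of HIST1H1C, HIST1H2AC, HIST1H2BD, HIST1H2BK and HIST2H2AA4 held under both scalings, under the 6 other settings tried and with any 1 library left out, except that in 1 of these settings HIST2H2AA4 was tested only in a sum with HIST2H2AA3. The calls of the other 5 (HIST1H2BC, HIST1H2BJ, HIST2H2AA3, HIST2H4A and HIST2H4B) did not hold in all of these. With no filter on low values, which adds genes to the adjustment, they were lost and the first 5 were kept.

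**Figure D2:**
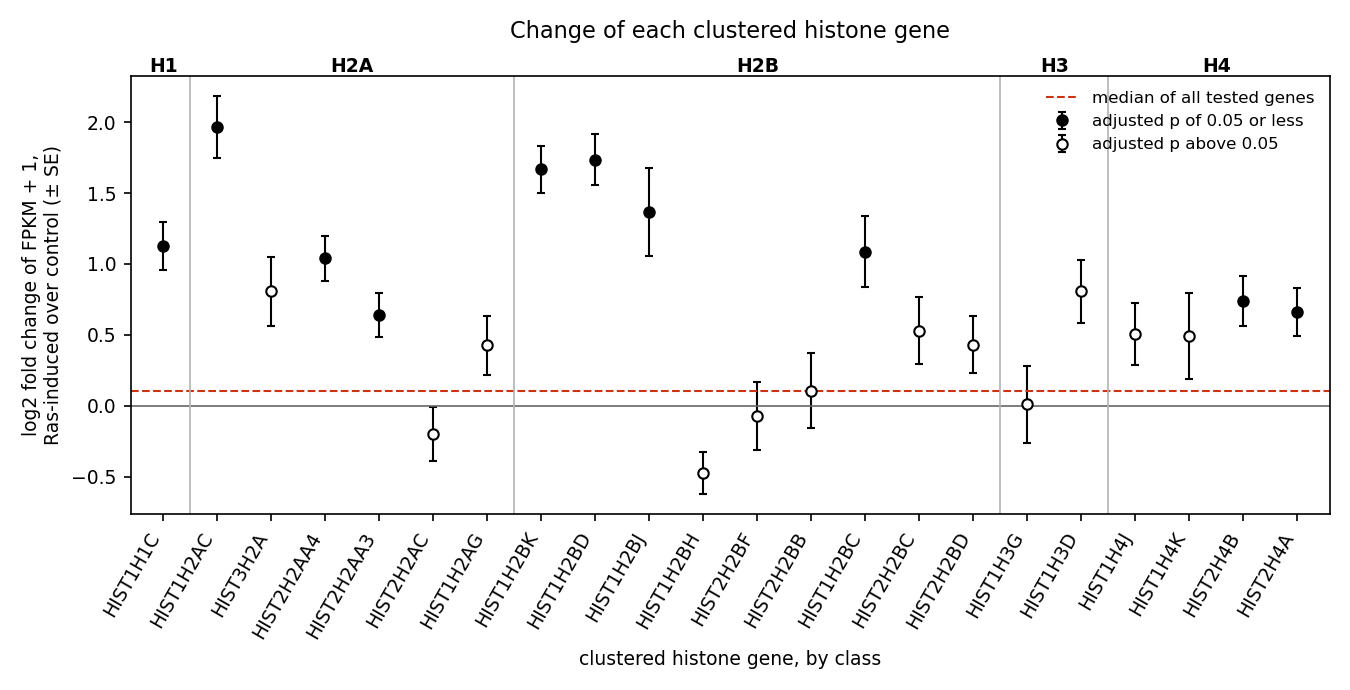
Log2 fold change of FPKM + 1 in Ras-induced over control mitotic cells for the same 22 genes, with standard errors from limma. Filled points have an adjusted p of 0.05 or less, and the dashed line is the median of all tested genes (0.10); all 10 filled points are above it, from 0.64 for HIST2H2AA3 to 1.97 for HIST1H2AC.

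Of the linker histone genes, HIST1H1C (ENSG00000187837, chromosome 6 of GRCh37 from 26055968 to 26056698) was the one of 6 at a mean of 1 FPKM or more. It had 6.55, 4.26 and 5.70 FPKM in control and 14.2, 14.2 and 10.9 FPKM in Ras-induced mitotic cells. The lowest Ras-induced value lay above the highest control value, and the means were 5.50 ± 1.16 and 13.1 ± 1.92 FPKM (SD, n = 3 each). HIST1H1C rose by a log2 fold change of 1.13 (SE 0.17, limma adjusted p = 0.00940).

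H2A genes encode the histone that pairs with H2B in the nucleosome core. Of 6 at a mean of 1 FPKM or more, 3 rose and 3 did not pass the test, with a median log2 fold change of 0.72. HIST1H2AC (ENSG00000180573, chromosome 6 from 26124373 to 26139344) had 2.75, 2.68 and 1.83 FPKM in control and 12.0, 16.5 and 9.23 FPKM in Ras-induced mitotic cells. The lowest Ras-induced library was above every control library, and the mean went from 2.42 ± 0.516 to 12.6 ± 3.68 FPKM (SD, n = 3 each). HIST1H2AC rose by a log2 fold change of 1.97 (SE 0.22, limma adjusted p = 0.00406), the largest of the 22 members and rank 162 among all 13993 tested genes. With any 1 library left out its adjusted p was 0.0218 at most. Its span overlaps another annotated transcript on the same strand, so its values are uncertain.

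HIST2H2AA3 and HIST2H2AA4 encode H2A from copies on chromosome 1 that were identical over the last 300 coding bases and the 60 bases that follow, so the fragments of the 2 could not be told apart by sequence there and the values of each are uncertain. HIST2H2AA4 (ENSG00000203812, chromosome 1 from 149822628 to 149823161) had 2.24, 2.23 and 2.05 FPKM in control and 4.72, 6.95 and 5.12 FPKM in Ras-induced mitotic cells. HIST2H2AA3 (ENSG00000183558, chromosome 1 from 149813505 to 149814478) had 1.84, 2.20 and 1.57 FPKM in control and 3.41, 3.91 and 3.07 FPKM in Ras-induced mitotic cells. In both copies every Ras-induced value was above every control value. HIST2H2AA4 rose by a log2 fold change of 1.04 (SE 0.16, limma adjusted p = 0.00942) and HIST2H2AA3 by 0.64 (SE 0.15, limma adjusted p = 0.0362). The call of HIST2H2AA3 was lost with any of the 6 libraries left out (adjusted p from 0.0657 without the second control library to 0.0966 without the first) and under both scalings. With the 2 copies summed before the test the log2 fold change was 0.99 (SE 0.14, limma adjusted p = 0.00801).

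HIST3H2A (ENSG00000181218, chromosome 1 from 228622478 to 228645574) had 4.12, 3.14 and 4.15 FPKM in control and 8.40, 9.73 and 4.79 FPKM in Ras-induced mitotic cells. The groups did not overlap, but the third Ras-induced library was close to the controls. The log2 fold change of HIST3H2A was 0.81 (SE 0.24, limma adjusted p = 0.0671), which did not pass the test. Without the third Ras-induced library it was 1.07 with an adjusted p of 0.0236, and with any other library left out the adjusted p was 0.108 to 0.175. HIST1H2AG had 0.949, 1.30 and 0.539 FPKM in control and 1.52, 1.62 and 1.53 FPKM in Ras-induced cells, without overlap. Its log2 fold change was 0.43 (limma adjusted p = 0.206, 0.27 to 0.76 over the alternatives). HIST2H2AC had 2.92, 3.50 and 2.21 FPKM in control and 2.13, 2.94 and 2.02 FPKM in Ras-induced cells, and its groups overlapped (log2 fold change -0.20, limma adjusted p = 0.491, -0.33 to -0.09 over the alternatives).

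H2B genes made up most of the summed FPKM of the 22 members in each library. Of 9 at a mean of 1 FPKM or more, 4 rose and 5 did not pass the test, with a median log2 fold change of 0.53. HIST1H2BK (ENSG00000197903, chromosome 6 from 27114140 to 27114634) was the most abundant of the 22 members, with 12.1, 16.2 and 10.9 FPKM in control and 43.0, 49.1 and 38.0 FPKM in Ras-induced mitotic cells. The gap between the groups was wider than the range within either, and the means were 13.1 ± 2.80 and 43.4 ± 5.57 FPKM (SD, n = 3 each). HIST1H2BK rose by a log2 fold change of 1.67 (SE 0.16, limma adjusted p = 0.00283).

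HIST1H2BD (ENSG00000158373, chromosome 6 from 26158350 to 26171577) had 3.81, 4.39 and 2.95 FPKM in control and 15.5, 17.2 and 11.6 FPKM in Ras-induced mitotic cells. Here too the lowest Ras-induced value was above the highest control value, and the means were 3.71 ± 0.726 and 14.8 ± 2.88 FPKM (SD, n = 3 each). HIST1H2BD rose by a log2 fold change of 1.74 (SE 0.18, limma adjusted p = 0.00336). The annotation places other transcripts of both strands within its span, so its values are uncertain. HIST1H2BJ (ENSG00000124635, chromosome 6 from 27093676 to 27100574) had 4.16, 7.25 and 2.58 FPKM in control and 14.0, 14.9 and 10.0 FPKM in Ras-induced mitotic cells. Its second control library was high and the third low, but all controls stayed under every Ras-induced value. HIST1H2BJ rose by a log2 fold change of 1.37 (limma adjusted p = 0.0308), with the largest SE of the 22 members (0.31). That call held without the second control library (adjusted p = 0.0207) and without the third (adjusted p = 0.0477). It was lost without the first control library (limma adjusted p = 0.0870) and without the first, the second or the third Ras-induced library (limma adjusted p = 0.0910, 0.0865 and 0.0564).

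HIST1H2BC (ENSG00000180596, chromosome 6 from 26086545 to 26124154) had 0.625, 1.19 and 0.643 FPKM in control and 2.25, 4.19 and 2.31 FPKM in Ras-induced mitotic cells. In each group the second library was the highest, and the groups did not overlap. HIST1H2BC rose by a log2 fold change of 1.09 (SE 0.25, limma adjusted p = 0.0321), but with any 1 library left out the call was lost, with adjusted p from 0.0538 (without the second control) to 0.0915 (without the first). Its span holds other genes on the same and the opposite strand (HFE, HIST1H4C and HIST1H1T among them), which these libraries cannot tell apart by strand, so the value is uncertain.

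The H2B genes that did not pass the test included the 1 member whose Ras-induced values were all lower. HIST1H2BH (ENSG00000197459, chromosome 6 from 26251842 to 26252303) had 5.86, 4.98 and 4.04 FPKM in control and 2.92, 3.46 and 3.40 FPKM in Ras-induced mitotic cells. In control cells it was the most abundant H2B gene after HIST1H2BK by its mean of 4.96 ± 0.911 FPKM (SD, n = 3), a rank it did not hold in Ras-induced cells (3.26 ± 0.295 FPKM, SD, n = 3). The log2 fold change of HIST1H2BH was -0.47 (SE 0.15, limma adjusted p = 0.0768), and with upper-quartile scaling it was -0.56 with an adjusted p of 0.0458 (0.0458 to 0.201 over all alternatives).

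HIST2H2BF had 2.48, 3.61 and 2.52 FPKM in control and 2.55, 3.90 and 1.80 FPKM in Ras-induced cells. It overlaps FCGR1A on the opposite strand. HIST2H2BB had 2.59, 1.99 and 3.31 FPKM in control and 3.09, 4.12 and 1.75 FPKM in Ras-induced cells. The groups of both genes overlapped, with log2 fold changes of -0.07 (limma adjusted p = 0.864) and 0.10 (limma adjusted p = 0.813), which changed sign in some of the fits without 1 library. HIST2H2BC and HIST2H2BD, which the later annotation lists as pseudogenes, had log2 fold changes of 0.53 (limma adjusted p = 0.17) and 0.43 (limma adjusted p = 0.190).

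Among members at a mean of 1 FPKM or more, the H3 genes had the lowest summed FPKM of the 5 classes, and neither of the 2 passed the test. With members under 1 FPKM included, H1 was lower than H3 in control (6.19 against 6.66 FPKM). HIST1H3D had 0.662, 0.673 and 0.624 FPKM in control and 1.25, 2.01 and 2.57 FPKM in Ras-induced mitotic cells. Its groups did not overlap, and its Ras-induced values were far more spread than its controls (SD 0.664 against 0.0256 FPKM, n = 3 each). HIST1H3D had a log2 fold change of 0.81 (SE 0.22, limma adjusted p = 0.0532) and passed the test under 3 of the 8 other settings and without the first Ras-induced library (adjusted p = 0.0432). HIST1H3G had 2.23, 1.94 and 1.57 FPKM in control and 3.06, 1.98 and 1.05 FPKM in Ras-induced mitotic cells. The Ras-induced values lay on both sides of the controls. The log2 fold change of HIST1H3G was 0.01 (SE 0.27, limma adjusted p = 0.985), but -0.075 and -0.062 with quantile and upper-quartile scaling.

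Of the 4 H4 genes 2 rose, with a median log2 fold change of 0.58 over the 4. HIST2H4A and HIST2H4B are a pair of copies on chromosome 1, identical over the last 300 coding bases and the next 60, and the value of each is uncertain. HIST2H4A (ENSG00000183941, chromosome 1 from 149804221 to 149811339) had 0.978, 1.39 and 0.858 FPKM in control and 2.26, 2.37 and 2.14 FPKM in Ras-induced mitotic cells. HIST2H4B (ENSG00000182217, chromosome 1 from 149825607 to 149832725) had 0.915, 1.33 and 0.852 FPKM in control and 2.07, 2.68 and 2.39 FPKM in Ras-induced mitotic cells. The 2 copies had close values in each library, and in neither did the groups overlap. HIST2H4A rose by a log2 fold change of 0.66 (SE 0.17, limma adjusted p = 0.0453) and HIST2H4B by 0.74 (SE 0.18, limma adjusted p = 0.0358). Both calls were lost with any 1 library left out, with adjusted p from 0.0629 (without the second control) to 0.113 (without the first control) for HIST2H4A and from 0.0569 (without the second control) to 0.105 (without the third Ras-induced library) for HIST2H4B. Both were lost with quantile normalization too, and that of HIST2H4A also with upper-quartile scaling. Summed before the test, the copies had a log2 fold change of 0.87 (SE 0.16, limma adjusted p = 0.0166).

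HIST1H4J and HIST1H4K were identical over the last 300 coding bases and 73.3% identical over the next 60, and are uncertain for the same reason. HIST1H4J had 2.75, 2.32 and 1.62 FPKM in control and 3.42, 4.68 and 2.71 FPKM in Ras-induced cells. HIST1H4K had 3.03, 2.55 and 0.964 FPKM in control and 2.63, 4.39 and 2.99 FPKM in Ras-induced cells. The groups of both overlapped, with log2 fold changes of 0.50 (limma adjusted p = 0.157) and 0.49 (limma adjusted p = 0.310, 0.18 to 0.70 over the alternatives).

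Added up, the 22 genes gave 64.7, 70.8 and 53.7 FPKM in control and 147.6, 174.5 and 121.8 FPKM in Ras-induced mitotic cells. Every Ras-induced library was above every control library, and the ratio of the means was 2.35 (63.1 ± 8.67 against 148.0 ± 26.4 FPKM, SD, n = 3 each), or 2.18 with upper-quartile scaling. By class the ratio was 2.38 for H1, 2.36 for H2A, 2.50 for H2B, 1.55 for H3 and 1.78 for H4. With members under 1 FPKM included these were 2.23, 2.18, 2.45, 1.37 and 1.80, and 2.21 for all classes together. The H3 ratio of 1.55 rests largely on HIST1H3D (2.97), which reached a mean of 1 FPKM through its Ras-induced values. HIST1H3G had a ratio of 1.06. H2B made up 54.4% of the sum in control and 58.3% in Ras-induced cells, and H3 4.08% and 2.73%. The shares of H2B overlapped between the groups and those of H3 did not. Few genes carried the sum, since HIST1H2BK alone made up 26.8% of the summed means and the 5 most abundant genes (HIST1H2BK, HIST1H1C, HIST1H2BD, HIST1H2BJ and HIST1H2AC, all altered) 59.8%. Ranked over both groups, genes that rose come out higher, and these 5 made up 46.6% of the control sum and 65.4% of the Ras-induced sum. By control means alone the top 5 were HIST1H2BK, HIST1H1C, HIST1H2BH, HIST1H2BJ and HIST3H2A, 3 of them altered, with 50.8% of the control sum. The share of HIST1H2BK was 18.7%, 22.9% and 20.3% in control and 29.1%, 28.2% and 31.2% in Ras-induced libraries, without overlap. Sums over members carry no test here.

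**Figure D3:**
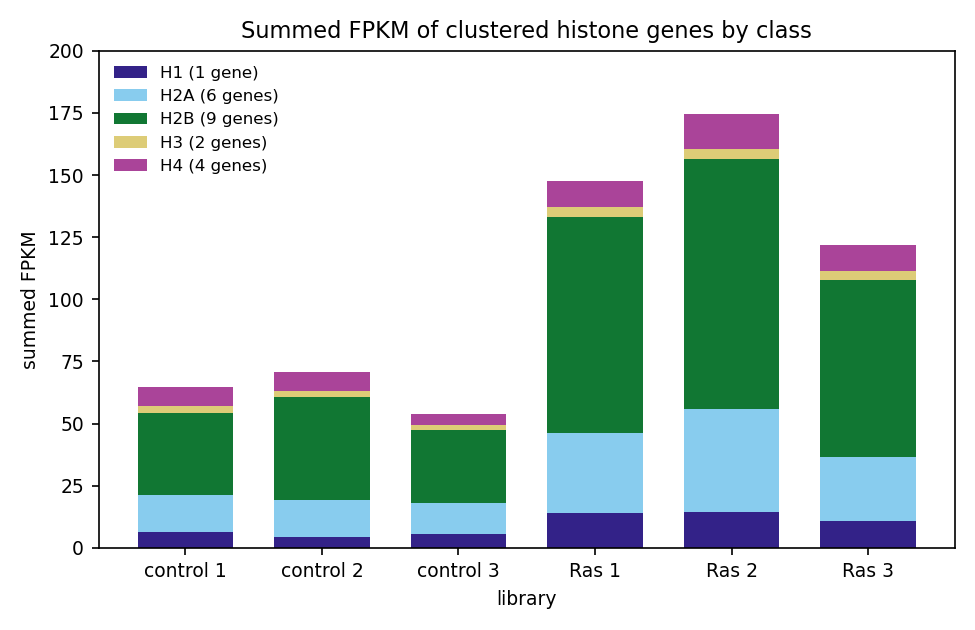
Summed FPKM of the 22 clustered histone genes in each library, stacked by histone class, with control libraries on the left and Ras-induced libraries on the right. The sums were 53.7 to 70.8 FPKM in control and 121.8 to 174.5 FPKM in Ras-induced mitotic cells, and H2B was the largest class in each library.

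Many histone genes sit head to head and share the stretch between their starts. Among annotated members, 13 such pairs had starts at most 500 bases apart (130 to 319 bases), and in 7 of them at least 1 gene reached a mean of 1 FPKM. In 4 of the 7 both genes did. In each of these 4, 1 gene (HIST1H2BC, HIST1H2AG, HIST2H2BD or HIST2H2BC) had a control mean under 1 FPKM and reached it through its Ras-induced values. HIST1H2BK (28.2 FPKM over all 6 libraries) and HIST1H2AH (0.205 FPKM) lay 251 bases apart, and HIST3H2A (5.72 FPKM) and HIST3H2BB (0.0368 FPKM) 230 bases apart. The level within these pairs thus differed widely. HIST1H2BJ (8.81 FPKM) and HIST1H2AG (1.24 FPKM) lay 248 bases apart, and HIST1H2AC (7.49 FPKM) and HIST1H2BC (1.87 FPKM) 219 bases apart. Of the 4 pairs with both genes tested, that of HIST1H2AC and HIST1H2BC was the 1 in which both rose, although the call of HIST1H2BC was lost with any 1 library left out and its mean of 1 FPKM was reached through its Ras-induced values (control mean 0.819 FPKM).

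**Figure D4:**
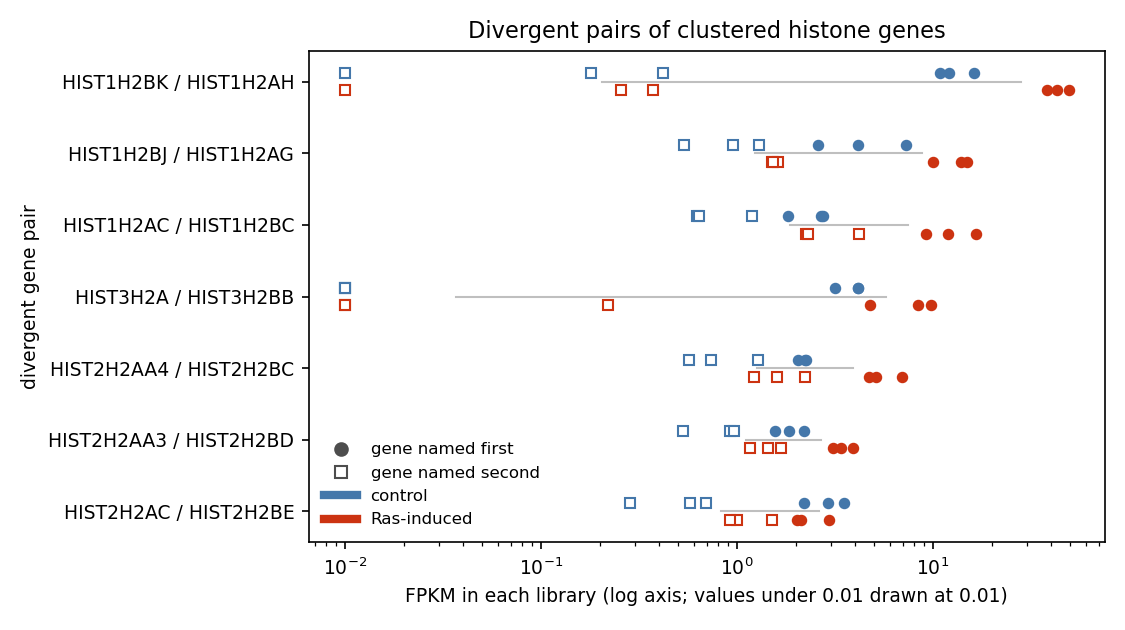
FPKM in each library (log axis, values under 0.01 drawn at 0.01) for the 7 head-to-head pairs with at least 1 gene at a mean of 1 FPKM. Circles are the gene named first and squares the gene named second, blue for control and red for Ras-induced mitotic cells; HIST1H2BK averaged 28.2 FPKM and HIST1H2AH 0.205 FPKM.

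The promoters of HIST1H2AC, which faces HIST1H2BC, and of HIST1H2BK are shown because they belong to the member with the largest log2 fold change and to the most abundant one. Each runs from 250 bases before to 50 bases after the start and is from the RefSeq promoter table (GRCh38.p14, a later build than that of the files), in which 61 members were matched, 19 of them at a mean of 1 FPKM or more. HIST1H2AC is on the plus strand at chr6:26123922-26124221 and HIST1H2BK on the minus strand at chr6:27146809-27147108. Capitals mark ATTTGCAT (the octamer), CCAAT and TATAAA on either strand, so that ATGCAAAT, ATTGG and TTTATA are the same motifs read on the other strand (TTTATAAA holds TATAAA on both).
HIST1H2AC: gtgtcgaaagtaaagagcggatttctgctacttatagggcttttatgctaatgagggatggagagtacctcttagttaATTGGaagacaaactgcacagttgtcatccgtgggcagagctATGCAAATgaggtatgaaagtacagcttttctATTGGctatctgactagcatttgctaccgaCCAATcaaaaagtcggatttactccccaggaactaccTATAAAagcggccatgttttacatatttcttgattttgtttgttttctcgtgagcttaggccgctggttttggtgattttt
HIST1H2BK: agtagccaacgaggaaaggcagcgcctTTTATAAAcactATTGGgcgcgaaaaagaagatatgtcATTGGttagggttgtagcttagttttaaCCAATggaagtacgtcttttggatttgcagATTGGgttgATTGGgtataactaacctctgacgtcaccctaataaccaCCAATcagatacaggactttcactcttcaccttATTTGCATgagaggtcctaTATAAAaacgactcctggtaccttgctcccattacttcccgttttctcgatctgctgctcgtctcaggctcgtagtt
Both held all 3 motifs. The window listed for HIST1H3D is the same as that of HIST1H2AD and lies at the start of HIST1H2AD, and it is counted below with the octamer and CCAAT. Among the 19 members the octamer was in 9 (47.4%), CCAAT in 15 (78.9%) and TATAAA in 11 (57.9%). The shares were 31% (octamer), 85.7% (CCAAT) and 71.4% (TATAAA) of the 42 matched members under 1 FPKM, and 1.77%, 34.6% and 11.5% of all 35116 promoters in the table. These matches were looked up after the values were seen, and they describe the letters in these windows and nothing about the binding of a factor.

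The bases that follow the stem-loop were compared too. Searched after the values were seen, AATAAA (the core poly(A) signal) lay within 150 bases after the stop codon in 5 of the 19 coding members (HIST1H1C, HIST1H2BD, HIST1H4J, HIST2H2AA3 and HIST2H2AA4), in 0 of the 46 under 1 FPKM, and in 14.5% of other protein-coding genes. In HIST1H1C and HIST1H2BD it began 13 bases past the stem-loop, and in both HIST2H2AA copies 14 bases past it. In HIST1H4J it lay before the stem-loop, 16 bases after the stop codon. Of these 5 genes 4 rose, as did 6 of the 14 without it, and counting only calls that held with any 1 library left out, 3 of the 5 and 2 of the 14. The 14 include HIST1H2AG, HIST1H2BC and HIST1H3D, which reached a mean of 1 FPKM through their Ras-induced values. Identical copies are counted separately here, HIST2H2AA3 and HIST2H2AA4 among the 5 and HIST2H4A and HIST2H4B among the 14, although their values are not independent. Within 2000 bases the motif was in 17 of the 19 (89.5%), in 84.8% of the lower members and in 80.1% of other genes, HIST1H2BK having its first 1553 bases past the stem-loop.

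A transcript that ends more than 200 bases past the stem-loop is annotated for 9 of the 19 (47.4%), against 7 of the 46 under 1 FPKM (15.2%). The annotation is GENCODE 44, later than the Ensembl build that the study's methods name. Its transcript ends need not be those of the gene models behind the FPKM values. The 9 were HIST1H2AC, HIST1H2BC, HIST1H2BD, HIST1H2BJ, HIST2H2AA3, HIST2H2BF, HIST2H4A, HIST2H4B and HIST3H2A. Of these, 7 rose, with a median log2 fold change of 0.81 over the 9, and 3 of the other 10 rose (HIST1H1C, HIST1H2BK and HIST2H2AA4), with a median of 0.50 over the 10. More than 1 exon is annotated for 8 of the 19 and for 7 of the 46. Counting only calls that held with any 1 library left out, 2 of the 9 with such a transcript and 3 of the other 10 rose, so the contrast was not seen in these calls. The copies HIST2H2AA3, of the 9, and HIST2H2AA4, of the other 10, were identical over the bases compared, and the values of each are uncertain. Their annotated transcripts are 974 and 534 bases long, and the counts on each side depend on that annotation. The copies HIST2H4A and HIST2H4B are both among the 9, although their values are not independent. HIST1H2BC of the 9, and HIST1H2AG and HIST1H3D of the other 10, reached a mean of 1 FPKM through their Ras-induced values. The difference between the genes with and without such a transcript was not tested. Whether the reads ended at a poly(A) tail past the stem-loop cannot be seen in gene-level FPKM.

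**Figure D5:**
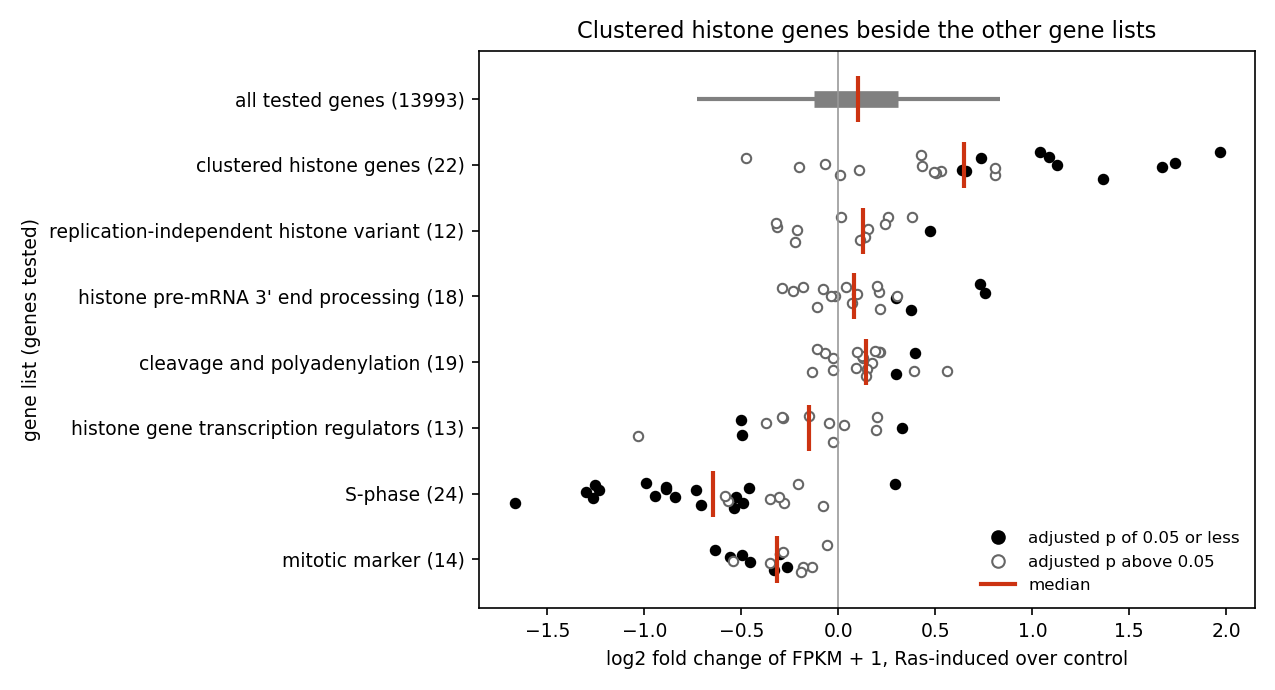
Log2 fold change of FPKM + 1 in Ras-induced over control mitotic cells for each tested gene of 7 lists, with the number tested in brackets, beside all tested genes (box from the lower to the upper quartile). Filled points have an adjusted p of 0.05 or less and the red lines are medians, which were 0.65 for clustered histone genes, -0.64 for S-phase genes and 0.10 for all tested genes.

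The 6 other lists, of genes that act in histone supply or the cell cycle, had median log2 fold changes from -0.64 to 0.14. Their counts stand beside 16.7% of all tested genes altered, 11.0% higher and 5.67% lower. The replication-independent variant genes, which are expressed outside S phase too and mostly from messages with a poly(A) tail, had 1 of 12 altered, H3F3C, with a median log2 fold change of 0.12. H3F3C had 6.58, 7.71 and 5.59 FPKM in control and 9.46, 9.03 and 10.1 FPKM in Ras-induced cells. It rose by a log2 fold change of 0.47 (SE 0.13, limma adjusted p = 0.0494), a call lost with any 1 library left out (adjusted p from 0.0565 to 0.151) and under quantile and upper-quartile scaling, where 2 other variants were lower and H3F3C was not altered. H1F0, a linker histone variant, had 19.5, 20.0 and 18.4 FPKM in control and 25.7, 20.2 and 23.2 FPKM in Ras-induced cells, just clear of overlap (log2 fold change 0.24, limma adjusted p = 0.164).

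Of 18 genes that act on the end of histone messages, 4 rose and 14 did not pass the test, with a median log2 fold change of 0.08 (-0.02 with quantile and with upper-quartile scaling, where 2 were higher). SLBP, which binds the stem-loop, had 47.8, 53.5 and 43.5 FPKM in control and 42.6, 50.3 and 43.8 FPKM in Ras-induced mitotic cells. Its groups overlapped, with a log2 fold change of -0.08 (SE 0.11, limma adjusted p = 0.634). LSM10, a subunit of the U7 particle that directs cleavage of histone messages, had 26.3, 27.6 and 21.5 FPKM in control and 39.9, 47.0 and 41.9 FPKM in Ras-induced cells. LSM10 rose by a log2 fold change of 0.75 (SE 0.12, limma adjusted p = 0.0102), also with any 1 library left out (adjusted p of 0.0391 at most). ZCCHC6, a uridylyltransferase of messages under decay, rose by 0.73 (SE 0.17, limma adjusted p = 0.0320) and NCBP2, a cap-binding subunit, by 0.37 (SE 0.07, limma adjusted p = 0.0158). The call of ZCCHC6 held without the second Ras-induced library and in no other of the 6 fits without 1 library (adjusted p from 0.0301 to 0.0983), and was lost under both scalings. That of NCBP2 held in 3 of the 6 fits, without the first control, the third control or the second Ras-induced library (adjusted p from 0.0280 to 0.0683).

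Genes of general cleavage and polyadenylation had 2 of 19 altered, CPSF2 and CLP1, with a median log2 fold change of 0.14, and PAPOLG was under 1 FPKM. CPSF2, which is on both lists of message ends, had 32.8, 33.0 and 33.3 FPKM in control and 42.7, 40.6 and 39.2 FPKM in Ras-induced cells. It rose by 0.30 on the log2 scale (SE 0.07, limma adjusted p = 0.0350), and CLP1 rose by 0.39 (SE 0.09, limma adjusted p = 0.0339). Neither call held under the 2 scalings, nor with any 1 library left out (adjusted p from 0.0520 to 0.108 for CPSF2 and from 0.0591 to 0.117 for CLP1).

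Regulators of histone gene transcription had 3 of 13 altered, with a median log2 fold change of -0.15, and POU2F1, POU2AF1 and CCNE2 were under 1 FPKM. NPAT, which activates histone genes in S phase, had 1.73, 1.99 and 2.12 FPKM in control and 3.02, 2.11 and 2.07 FPKM in Ras-induced cells, with overlapping groups (log2 fold change 0.20, limma adjusted p = 0.454). CASP8AP2, its partner at histone genes, had 4.00, 4.17 and 3.90 FPKM in control and 3.34, 3.01 and 2.99 FPKM in Ras-induced cells, without overlap (log2 fold change -0.29, limma adjusted p = 0.132). NFYA, a subunit of the factor that binds CCAAT, rose by 0.33 (SE 0.08, limma adjusted p = 0.0431), a call lost under both scalings and with any 1 library left out (adjusted p from 0.0690 to 0.136). CCNA2, a cyclin of S and G2 phase, fell by 0.50 on the log2 scale (limma adjusted p = 0.0125), and RB1, a repressor of S-phase entry, fell by 0.50 (limma adjusted p = 0.0201). Both kept the call under the scalings, but in the fits without 1 library CCNA2 lost it without the second control or the third Ras-induced library (adjusted p up to 0.0545) and RB1 kept it without the third control alone (adjusted p from 0.0197 to 0.0648).

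S-phase genes are switched on together with clustered histone genes in cycling cells. Of 24 tested, 16 fell and 1 rose, with a median log2 fold change of -0.64. TYMS, which makes thymidylate for DNA synthesis, had 92.7, 86.5 and 85.9 FPKM in control and 21.9, 34.9 and 26.0 FPKM in Ras-induced mitotic cells. MCM3, a subunit of the replicative helicase, had 29.0, 35.5 and 31.8 FPKM in control and 11.0, 14.6 and 11.9 FPKM in Ras-induced mitotic cells. In neither gene did the groups overlap. TYMS fell by 1.67 on the log2 scale (SE 0.16, limma adjusted p = 0.00279), MCM3 fell by 1.30 (SE 0.13, limma adjusted p = 0.00287) and MCM6 fell by 1.26 (SE 0.14, limma adjusted p = 0.00384), each also with any 1 library left out. The gene that rose was FEN1, a flap endonuclease, by 0.29 (limma adjusted p = 0.0330), and not under the 2 scalings or with any 1 library left out (adjusted p from 0.0517 to 0.0961).

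Mitotic marker genes had 7 of 14 altered, all lower, with a median log2 fold change of -0.32. By level, CCNB1 averaged 515.9 FPKM and CDC20 345.6 FPKM over the 6 libraries. TOP2A, which untangles DNA, fell by 0.63 on the log2 scale (limma adjusted p = 0.0339), CENPE, a motor of the kinetochore, fell by 0.56 (limma adjusted p = 0.0340) and CENPF fell by 0.50 (limma adjusted p = 0.0208). Leaving out 1 library left 0 to 6 of the 14 altered by limma, with 8 to 10 at an unadjusted p under 0.05. TOP2A kept its call without the first Ras-induced library alone (adjusted p from 0.0242 to 0.103), CENPE without the third control alone (adjusted p from 0.0194 to 0.102) and CENPF in 3 of the 6 fits (adjusted p from 0.0235 to 0.0695). Whether the lower S-phase and mitotic genes have a part in the histone result was not tested.

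As a reference at the same level, among the 9804 tested genes with means from 1.12 to 28.2 FPKM, the range of the members, 14.3% were altered and 9.41% higher. The members were measured less precisely than these, with a median SE of 0.21 on the log2 scale against 0.16.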

How the data were processed

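The authors trimmed reads with Trim Galore 0.3.0, aligned them with TopHat2 to hg19 and made FPKM values per gene with Cufflinks, as deposited; their Cuffdiff comparison was not used here. Columns give the group but not the sample, so libraries were taken as replicates of their group. Of 63129 genes listed, 120 with more than 6 values were left out, as were 18 unnamed columns and 1 repeated header line, leaving 63009.

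No count test was run, since FPKM values are not counts. In R 4.3.3, limma 3.58.1 compared the groups on log2(FPKM + 1) for the 13993 genes that averaged 1 FPKM or more (mean-variance trend, two-sided, Benjamini-Hochberg over all of them), after the procedure was tested on simulated data. An exact test of 3 against 3 cannot go under 0.1. Members and gene lists were chosen with earlier results of these data known. The text names every member at a mean of 1 FPKM or more, the 3 highest below it, the 3 largest rises and falls among altered genes of each other list, and SLBP, NPAT, CASP8AP2, H1F0 and HRAS. Other genes it names were chosen after their values were seen.

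Gene positions, exons and stop codons are from GENCODE 44 lifted to GRCh37, in which 41 of the 76 symbols matched by identifier, 29 by symbol and 6 not. It is a later annotation than the Ensembl build named in the study's methods. Alternatives tried were a pseudocount of 0.1, a mean of at least 0.1 FPKM, no filter, quantile and upper-quartile scaling, no variance trend, the replicate number as a block, near-identical copies summed, each library left out, and sums over all members.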

Additional observations from a re-analysis of the deposited data

How the results depend on the processing

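In all 8 other settings and with any 1 library left out, HIST1H1C, HIST1H2AC, HIST1H2BD, HIST1H2BK and HIST2H2AA4 kept their direction and their call, HIST2H2AA4 in 1 setting only as a sum with HIST2H2AA3. Over all tested genes, counts of altered genes fell where fewer libraries or more genes were tested, and those of the lists did not all follow. With 1 library left out, 998 to 1956 of all tested genes were altered, 5 to 6 clustered histone genes, 0 to 1 variant genes, 1 to 3 genes of histone message 3′ end processing, 0 to 1 of cleavage and polyadenylation, 0 to 3 transcription regulators, 10 to 16 S-phase genes and 0 to 6 mitotic marker genes. At an unadjusted p under 0.05 limma then gave 2 to 5 variant, 4 to 7 cleavage and polyadenylation, 4 or 5 regulator and 8 to 10 mitotic marker genes. The log2 fold change then ranged from -0.23 to 0.26 for HIST1H3G, from -0.10 to 0.35 for HIST2H2BB and from -0.28 to 0.12 for HIST2H2BF. With no filter on low values, which adds genes to the adjustment, 1518 of all genes were altered, 5 clustered histone genes, 0 variant, 1 cleavage and polyadenylation and 2 mitotic marker genes. At a mean of 0.1 FPKM or more, 0 variant genes were.

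For the other settings the cause of a difference was not tested. With quantile and with upper-quartile scaling alike, 2 variant genes, 2 of 3′ end processing and 0 of cleavage and polyadenylation were altered. Without the variance trend, 0 variant, 1 cleavage and polyadenylation and 3 mitotic marker genes were. HIST1H3G turned to -0.021 with a pseudocount of 0.1, -0.075 with quantile and -0.062 with upper-quartile scaling. Summing all members, those under 1 FPKM included, gave a control mean of 75.4 FPKM in place of 63.1. At an unadjusted p under 0.05 limma gave 4 or 5 variant and 4 to 6 cleavage and polyadenylation genes under these settings.

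With the replicate number as a block, 2310 of all tested genes were altered, 8 clustered histone genes (without HIST2H4A and HIST2H4B), 0 variant and 0 cleavage and polyadenylation genes. The labels do not say that a number marks a shared batch or day, and over all tested genes the values showed no pairing by number. Same-numbered libraries deviated from their group means with correlations of -0.00266, 0.0433 and 0.0481 across genes, none above 0.1, and not every library correlated best with its own number. The summed FPKM of the 22 clustered histone genes did have the same order by number in both groups, with the second library highest and the third lowest. Only relative depth was estimated from the values, not its absolute level, which limits what can be said of members under 1 FPKM.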

Other observations

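Genes marked PS were left out of the members. HIST1H1PS1, a linker histone pseudogene, had 0, 1.25 and 0 FPKM in control and 2.05, 3.12 and 4.85 FPKM in Ras-induced mitotic cells. The groups did not overlap, with 2 control libraries listed at 0, and its mean of 1 FPKM was reached through the Ras-induced values. HIST2H3PS2 had 3.51, 2.75 and 2.49 FPKM in control and 2.54, 1.62 and 1.79 FPKM in Ras-induced mitotic cells, with overlapping groups (log2 fold change -0.40, limma adjusted p = 0.183). Both were chosen after their values were seen.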
